A study of Mus musculus with 12 samples.

Results

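The 5 genes described here are Ly6d, Sprr1a, Sdcbp2, Trim47 and Enc1, of the 54532 genes listed for mouse liver. They were picked by name, with the results of these livers known, because a high-fat diet raised them strongly or because HYA lowered them. Differences between control and ND mice, between HYA and control mice and between HYA and ND mice are therefore given as a description with no test. LA mice did not enter that choice, so comparisons with LA mice were tested, although each of them shares its other group with the choice.

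RNA was sequenced from whole livers of 12 male C57BL/6J mice, 1 mouse a library and 3 mice a group. ND mice ate a normal diet, control mice ate a high-fat diet, HYA mice ate the high-fat diet with 1% HYA, and LA mice ate the high-fat diet with 1% LA, in each case for 26 weeks from 5 weeks of age. Lactic acid bacteria of the gut turn linoleic acid (LA) into HYA, a fatty acid with a hydroxyl group, by adding water to a double bond, and both acids were given at the same share of the diet. The study asked whether HYA acts on the fatty and fibrotic liver that follows prolonged high-fat feeding, with LA as the parent compound.

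Ly6d encodes a small GPI-anchored surface protein of the Ly6 family, known from keratinocytes and lymphoid progenitors. Sprr1a encodes a proline-rich precursor of the cornified envelope of squamous epithelium and is also induced in injured tissues, among them regenerating neurons. Sdcbp2 encodes syntenin-2, a PDZ domain protein that binds phosphoinositides, Trim47 a RING domain ubiquitin ligase of the tripartite motif family, and Enc1 a Kelch-BTB protein that binds actin and serves as an adaptor of cullin ubiquitin ligases. Ly6d and Sprr1a are best known from surface epithelia, not from hepatocytes.

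Values are FPKM, fragments scaled to gene length and library size, so levels can be compared between genes per length. Library totals recovered from the values ran from 17169064 to 25220880 fragments (median 19610557), and mice of the same group correlated at r = 0.983 to 0.990 over the genes tested. No library stood apart from its group over all genes, but control mouse 2 had the lowest level of its group for all 5 genes, and its part is given beside the results it touches. Hepatocyte markers were abundant in every liver, with summed levels of 27956 to 43069 FPKM over 9 genes. In whole liver, fewer cells of a type and less RNA per cell cannot be told apart. Since each library is 1 mouse, p-values measure the spread between mice.

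Promoters are shown for members that the RefSeq table of gene starts (GRCm38.p6) held, 3 of 5, because the AP-1 factors and other injury-related regulators described further on were also measured. The 250 bases before the start listed there were searched on both strands for AP-1 (TGANTCA), for TEAD (CATTCC) and for STAT (TTCNNNGAA), and AP-1 matches are in capitals, written 5′ to 3′ on the strand of the gene.
Sprr1a (chr3:92485882-92486131, minus strand): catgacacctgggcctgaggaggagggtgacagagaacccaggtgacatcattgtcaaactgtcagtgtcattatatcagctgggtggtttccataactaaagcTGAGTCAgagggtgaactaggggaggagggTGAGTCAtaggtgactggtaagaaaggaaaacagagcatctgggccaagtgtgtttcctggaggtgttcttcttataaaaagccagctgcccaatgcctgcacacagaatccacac
Sdcbp2 (chr2:151572373-151572622, plus strand): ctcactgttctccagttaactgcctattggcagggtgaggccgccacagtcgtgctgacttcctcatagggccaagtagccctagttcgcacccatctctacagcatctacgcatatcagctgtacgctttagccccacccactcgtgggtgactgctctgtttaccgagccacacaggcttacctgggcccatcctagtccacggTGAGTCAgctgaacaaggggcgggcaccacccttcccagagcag
The Sprr1a window held 2 AP-1 matches, whose first bases lay 146 and 116 bases before the start. In the Sdcbp2 window 1 match lay 44 bases before the start. The Trim47 window (chr11:116110236-116110485, minus strand) held none of the 3 motifs, and neither TEAD nor STAT letters occurred in the other windows. Among 32851 windows of the same length, 6.75% held at least 1 AP-1 match, 0.338% held 2 or more, 12.6% held TEAD and 7.02% held STAT. A match describes letters in these windows and no more.

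Ly6d (ENSMUSG00000034634, GRCm38 chromosome 15, 74762056 to 74763620, minus strand, 3 exons) was the most abundant member. Its level was 1.91, 1.18 and 0.823 FPKM in the 3 ND mice, and 116, 51.0 and 99.3 FPKM in the 3 control mice. In HYA mice it was 18.2, 13.1 and 21.4 FPKM, and in LA mice 115, 83.3 and 71.7 FPKM. Every HYA mouse lay above every ND mouse and below every mouse fed the high-fat diet alone or with LA, and the control and LA ranges overlapped. Group means were 1.31 ± 0.555, 88.9 ± 33.9, 17.6 ± 4.18 and 90.1 ± 22.7 FPKM (SD, n = 3) for ND, control, HYA and LA mice. The control mean was 68.1 times the ND mean, and the HYA mean was 0.198 times the control mean.

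Sprr1a (ENSMUSG00000050359, chromosome 3, 92483952 to 92485895, minus strand, 2 exons) was next to absent from ND livers. ND mice gave 0.141, 0.0781 and 0 FPKM, that is 2, 1 and 0 fragments. The count of 0 allows a level of up to 0.207 FPKM in that mouse, a limit that covers counting error only. Control livers held 30.5, 10.2 and 24.9 FPKM, HYA livers 3.39, 3.35 and 5.62 FPKM, and LA livers 22.0, 17.6 and 21.1 FPKM. As with Ly6d, the 3 HYA mice stood between the ND mice and the other 6 mice with no overlap. The means were 0.0731 ± 0.0708, 21.9 ± 10.5, 4.12 ± 1.30 and 20.2 ± 2.35 FPKM (SD, n = 3) in the same order of groups. Because ND mice had 3 fragments in all against 1120 in control mice, the ratio of the 2 rates, 302, had a 95% counting interval of 103 to 1466.

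Sdcbp2 (ENSMUSG00000027456, chromosome 2, 151572622 to 151590005, plus strand, 9 exons) had the lowest mean level of the 5 genes in each group fed a high-fat diet. ND mice had 0.163, 0.0900 and 0.0795 FPKM, from 4, 2 and 2 fragments. Levels were 3.59, 2.04 and 3.31 FPKM in control mice, 0.406, 0.867 and 0.694 FPKM in HYA mice, and 2.58, 1.84 and 2.31 FPKM in LA mice. Again the HYA mice stood apart between the ND mice and the other 6 mice. Mean levels were 0.111 ± 0.0453, 2.98 ± 0.826, 0.656 ± 0.233 and 2.24 ± 0.373 FPKM (SD, n = 3) in ND, control, HYA and LA mice. The fragment rate of control mice was 26.8 times that of ND mice, with a counting interval of 13.4 to 62.7.

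Trim47 (ENSMUSG00000020773, chromosome 11, 116105752 to 116127210, minus strand) was expressed in ND liver and had the smallest change from ND to control mice of the 5 genes. Its 2 coding transcripts span 116105752 to 116110246, and the gene overlaps Trim65 on the same strand, so reads in the shared part cannot be assigned with certainty. ND mice had 1.89, 1.84 and 1.81 FPKM, control mice 4.05, 3.47 and 4.29 FPKM, HYA mice 1.81, 2.18 and 1.98 FPKM, and LA mice 3.52, 2.69 and 2.66 FPKM. For this gene the HYA and ND ranges overlapped, and LA mice lay above both. Means were 1.85 ± 0.0420, 3.94 ± 0.418, 1.99 ± 0.184 and 2.96 ± 0.486 FPKM (SD, n = 3). Trim65 itself, another TRIM ligase, had means of 1.85 FPKM in ND, 2.16 FPKM in control, 2.04 FPKM in HYA and 2.09 FPKM in LA mice, and did not pass the test in any comparison.

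Enc1 (ENSMUSG00000041773, chromosome 13, 97241105 to 97253034, plus strand, 3 exons) was higher with the high-fat diet and only a little lower where HYA was added. ND mice had 1.51, 1.502 and 1.62 FPKM, control mice 5.99, 5.16 and 5.93 FPKM, HYA mice 4.37, 4.41 and 4.61 FPKM, and LA mice 5.32, 5.24 and 5.94 FPKM. HYA mice were below all control and LA mice, yet far above ND mice. The means were 1.55 ± 0.0656, 5.69 ± 0.463, 4.46 ± 0.130 and 5.50 ± 0.383 FPKM (SD, n = 3) in ND, control, HYA and LA mice.

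**Figure D1:**
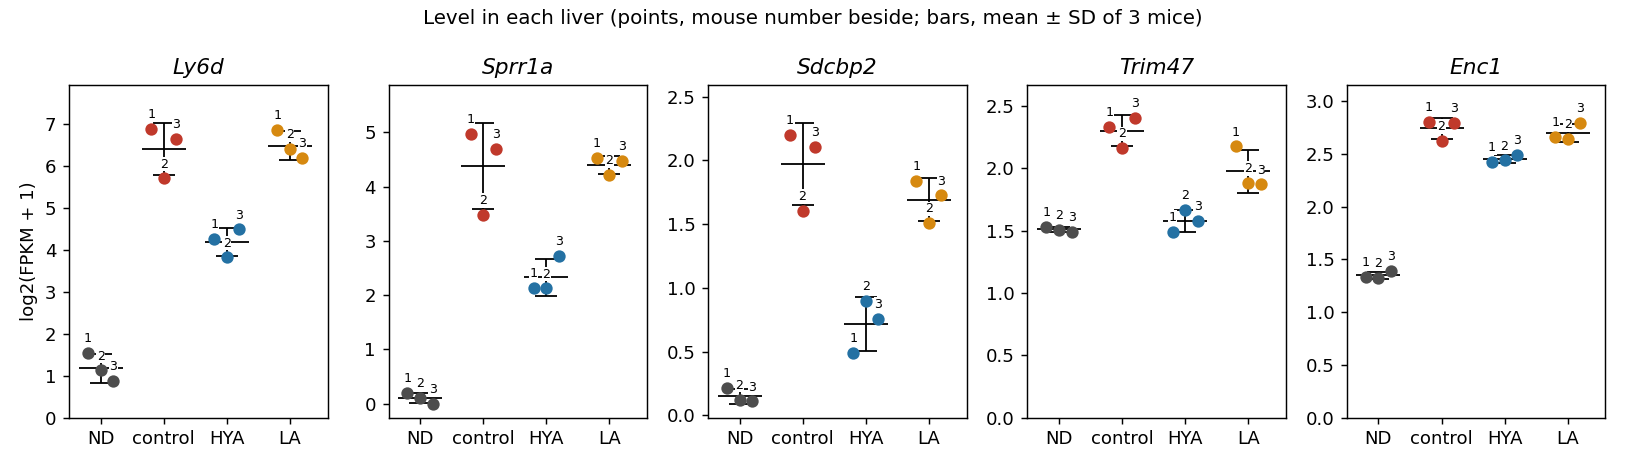
Level of each gene as log2(FPKM + 1) in each of the 12 livers, by diet group. Points are mice with their number, and bars give the mean ± SD of 3 mice. HYA mice sit between ND and control mice for Ly6d, Sprr1a and Sdcbp2, close to the ND mice for Trim47 and close to control mice for Enc1.

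Within each group the order of the genes differed. In ND livers Trim47, at a mean of 1.85 FPKM, was highest per length, followed by Enc1 and Ly6d, and the ranges of Ly6d overlapped those of both. In control and LA livers Ly6d was highest and Sprr1a second, with ranges that did not overlap, followed by Enc1. In HYA livers Ly6d was again highest, while Enc1 (4.37 to 4.61 FPKM) lay within the range of Sprr1a (3.35 to 5.62 FPKM).

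The contrasts that chose the genes are given as log2 fold changes of FPKM + 1 with the standard error of the limma fit. From ND to control mice the change was 5.23 (SE 0.31) for Ly6d, 4.29 (SE 0.32) for Sprr1a and 1.82 (SE 0.16) for Sdcbp2. Enc1 changed by 1.39 (SE 0.07) and Trim47 by 0.79 (SE 0.09), which is under the log2 change of 1 used for calls on this scale although the control mean of Trim47 was 2.13 times its ND mean. From control to HYA mice the values were -2.22 for Ly6d, -2.06 for Sprr1a and -1.25 for Sdcbp2. Those of Trim47, at -0.72, and of Enc1, at -0.29, were smaller than 1. Groups did not overlap for 5 of 5 genes in either contrast, while 19.9% of all 11083 genes tested were higher without overlap in control than in ND mice and 8.87% were lower without overlap in HYA than in control mice. Against ND mice, HYA mice were still higher without overlap for 4 of 5 genes (16.6% of all genes), at log2 fold changes of 3.01 for Ly6d, 2.23 for Sprr1a, 0.57 for Sdcbp2 and 1.10 for Enc1, and 0.07 for Trim47, whose ranges overlapped. The rule used these contrasts, so nothing is read from the counts. The constant of 1 FPKM holds down the fold changes of genes with low levels: with a constant of 0.1, the change from ND to control mice was 6.93 for Sprr1a, 3.85 for Sdcbp2 and 1.05 for Trim47.

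Levels were also expressed as a share of the rise from the ND to the control mean. HYA was fed with the high-fat diet throughout, so no fall within a mouse was measured. HYA mice reached 18.6% of the rise of Ly6d, 18.6% of that of Sprr1a and 18.98% of that of Sdcbp2. Single HYA mice ranged from 13.5 to 23.0% for Ly6d, from 15.1 to 25.5% for Sprr1a and from 10.3 to 26.4% for Sdcbp2. Trim47 reached 6.78% of its smaller rise, with single mice from -1.83 to 15.8%. Enc1 reached 70.4%, from 68.0 to 73.9%, so its range lay apart from those of the other 4 genes. The same share in LA mice was 101% for Ly6d, 92.5% for Sprr1a, 95.3% for Enc1, 74.3% for Sdcbp2 and 52.996% for Trim47.

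LA against ND mice was the comparison in which the high-fat diet could be seen in mice outside the choice, with the ND mice shared. All 5 genes were higher in LA mice with no overlap (20.5% of all genes), and 4 of 5 were called at an adjusted p under 0.05 and a log2 fold change above 1, against 2.13% of all genes called higher. Ly6d rose by a log2 fold change of 5.30 (95% interval 4.63 to 5.98, limma adjusted p = 1.49e-06). Sprr1a rose by 4.30 (3.61 to 5.00, limma adjusted p = 6.74e-06) and Sdcbp2 by 1.54 (1.19 to 1.89, limma adjusted p = 5.79e-05). For Enc1 the change was 1.35 (1.21 to 1.49, limma adjusted p = 4.44e-07). Trim47 passed at the adjusted p alone, with a change of 0.47 (0.26 to 0.67, limma adjusted p = 0.00357), where 14.4% of all genes passed as higher. Each direction held in 3 of 3 LA mice. This comparison shares the ND mice with that of control against ND mice, so the likeness of the 2 sets of values is no second observation. The ND mice took part in the choice of the genes, for being low, so these p-values rest partly on values that the choice used. Sdcbp2 reached the mean of 1 FPKM needed for testing only through its control and LA mice.

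Between LA and control mice none of the 5 genes was called by limma, and 0% of all genes were called in either direction. At an unadjusted p under 0.05 the count was 1, Trim47, against 2.65% of all genes, and voom on recovered fragments called 0. Ly6d differed by 0.07 on the log2 scale, with a 95% interval of -0.60 to 0.75, and Sprr1a by 0.02, with an interval of -0.68 to 0.71. Without control mouse 2, which was low for both genes, the differences were -0.28 for Ly6d and -0.43 for Sprr1a. Sdcbp2 differed by -0.28 (-0.63 to 0.07) and Enc1 by -0.04 (-0.19 to 0.10). Trim47 was lower in LA mice by -0.32 (-0.53 to -0.12, unadjusted p = 0.00545, limma adjusted p = 0.999), and its ranges overlapped. The tests do not show that the 5 genes were at equal levels in the 2 groups.

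HYA and LA, which differ by the hydroxyl group of HYA in place of a double bond, were compared directly at the same dose and time. HYA mice were lower for all 5 genes with no overlap (10.4% of all genes were lower without overlap). Ly6d was lower by a log2 fold change of -2.29 (95% interval -2.97 to -1.62, limma adjusted p = 0.0268) and Sprr1a by -2.07 (-2.77 to -1.38, limma adjusted p = 0.0350). These were the 2 genes called, against 0.0812% of all genes called lower, and HYA mice had 0.195 times the LA mean of Ly6d and 0.204 times that of Sprr1a. Sdcbp2 passed at the adjusted p alone, as did 0.253% of all genes in that direction, with a change of -0.97 (-1.32 to -0.63, limma adjusted p = 0.0365) on the scale of FPKM + 1, while its HYA mean was 0.292 times its LA mean. All 5 genes passed the filter of a mean of 1 FPKM, Sdcbp2 only through its control and LA mice. Tested with no such filter, the limma adjusted p was 0.0783 for Ly6d, 0.0855 for Sprr1a and 0.0855 for Sdcbp2, and none was called. Trim47, at -0.40 (-0.60 to -0.19, limma adjusted p = 0.0726), and Enc1, at -0.25 (-0.39 to -0.10, limma adjusted p = 0.0936), did not pass. The HYA mice took part in the choice of the genes, for being low, so these p-values rest partly on values that the choice used. The calls were close to the threshold: over the alternatives the adjusted p ran from 0.00310 to 0.134 for Ly6d, from 0.00192 to 0.179 for Sprr1a and from 0.00726 to 0.183 for Sdcbp2. No gene was called without ND mouse 2, HYA mouse 2, LA mouse 1 or LA mouse 2, whereas the log2 fold changes of Ly6d and Sprr1a stayed at or below -1.97 in every alternative run.

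**Figure D2:**
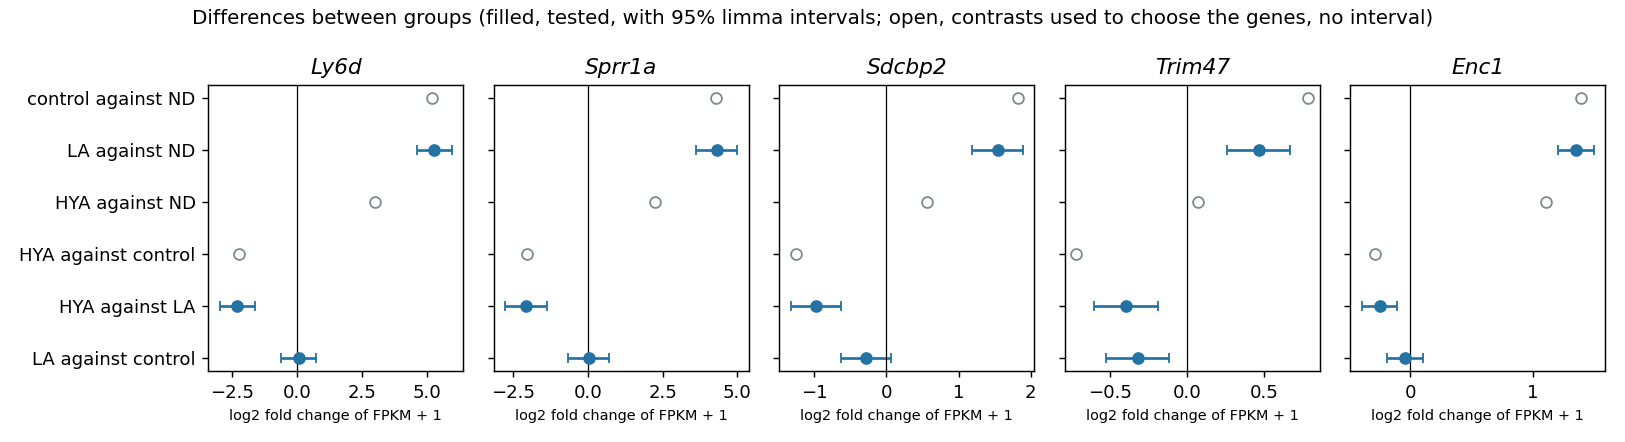
Log2 fold change of FPKM + 1 of each gene in 6 comparisons, 1 panel a gene with its own horizontal scale. Filled points were tested and carry 95% limma intervals, while open points are the contrasts used to choose the genes. HYA against LA lies below 0 for every gene, at -2.29 for Ly6d but -0.25 for Enc1.

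Whether the genes also moved together between mice of the same group was read from each mouse's deviation from its group mean, which the choice by group differences did not use. Over the 10 pairs of genes, r of these deviations over the 12 mice had a median of 0.614, from 0.172 for Trim47 and Enc1 to 0.837 for Ly6d and Sprr1a (Spearman's rho 0.839 for the latter). The points share libraries and the deviations have 8 degrees of freedom, so r is a description. Against all genes tested, r of the deviations of Ly6d had a median of -0.01, a 95th percentile of 0.628 and a 99th percentile of 0.776. Its r with Sprr1a lay above the 99th percentile. Those with Sdcbp2 (0.590), Trim47 (0.575) and Enc1 (0.344) lay below the 95th. For the other members the 95th percentile ran from 0.512 for Enc1 to 0.607 for Trim47. Control mouse 2 was low for every member, with deviations of -0.71 for Ly6d, -0.90 for Sprr1a, -0.37 for Sdcbp2, -0.14 for Trim47 and -0.12 for Enc1. Without that mouse the median over pairs was 0.277. Ly6d and Sprr1a then gave 0.630, and Sdcbp2 and Trim47, at 0.792 with all mice, gave 0.714. Enc1 then gave -0.35 with Ly6d and -0.34 with Trim47. Sprr1a and Sdcbp2 went from 0.797 to 0.431. All 10 pairs gave a lower r without control mouse 2.

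**Figure D3:**
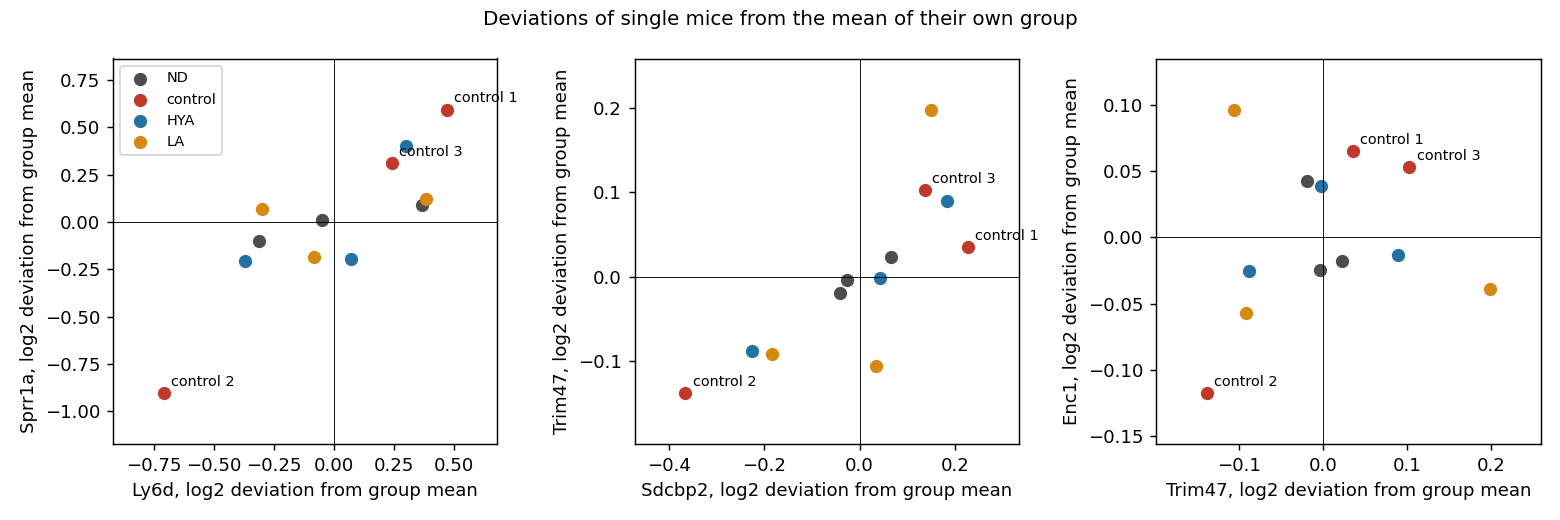
Deviation of each mouse from its group mean on the log2(FPKM + 1) scale for 3 pairs of genes, with points coloured by group and control mice named. Control mouse 2 is at the lower left in each panel, at -0.71 for Ly6d and -0.90 for Sprr1a. Trim47 and Enc1 show little relation (r = 0.172).

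The genes most like each member over the 12 mice, by r of log2(FPKM + 1), were found without use of function, and r here reflects mainly the 4 group means. For Ly6d they were Uap1l1 (r = 0.993), Ccdc80 (0.993), a secreted matrix protein, and Hsd17b13 (0.992), a lipid droplet enzyme of hepatocytes. For Sprr1a they were Cd63 (0.992), a tetraspanin of late endosomes and exosomes, Endod1 (0.990) and Hsd17b13 (0.990). Cd63 also came first for Sdcbp2 (0.987), followed by AI506816 (0.972) and Spp1 (0.971), which encodes osteopontin. Cd63 had means of 0.593, 5.31, 1.89 and 4.68 FPKM in ND, control, HYA and LA mice, the order seen for Sprr1a. Trim47 was most like Epcam (0.961), an epithelial adhesion molecule of bile ducts, Stmn1 (0.952), a tubulin-binding protein, and Tspan8 (0.945), another tetraspanin. Enc1 was most like Plin2 (0.992), the lipid droplet coat protein, Mogat1 (0.991), an enzyme of triglyceride synthesis, and Apoa4 (0.989), an apolipoprotein. Plin2 was at 143, 356, 301 and 345 FPKM in ND, control, HYA and LA mice. By deviations from group means the closest genes were others, Dennd5a, Cyp3a11 and Rad51b for Ly6d, Gss and Rab31 for Sprr1a, Ezr, Dtx3 and Dhx35 for Sdcbp2, Nop10, Plekhj1 and Kctd10 for Trim47, and Hipk2, Anxa4 and Hgf for Enc1, with r from 0.867 to 0.969. These values are the highest in a search over 11083 genes with 8 degrees of freedom, so they are a description. Control mouse 2 was the lowest control mouse for each of these genes too, at 11.5 FPKM for Gss against 16.5 FPKM in control mice 1 and 3. Their r without that mouse was not computed.

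Relatives of each gene were measured from lists of families and partners, with the members left out and counts at an adjusted p under 0.05 in the limma fit (16.2% of all genes passed as higher and 19.1% as lower in control than in ND mice). The lists were chosen with earlier results of these data known, so their counts are a description. Of 37 further Ly6 and uPAR family genes in the table, 5 were abundant enough to test and 11 were at 0 in every mouse. Ly6e, a broadly expressed relative, rose from 51.8 FPKM in ND to 75.0 FPKM in control mice (a change of 0.53, limma adjusted p = 0.00237) and was at 53.2 FPKM in HYA mice (-0.49 against control mice, limma adjusted p = 0.0357). Gpihbp1, which holds lipoprotein lipase on capillaries, rose by 0.47 (limma adjusted p = 0.00283), and no other tested relative passed in either comparison. Scaled to TPM, with a median of 0.17 over all genes, 4 of the 5 were higher in control than in ND mice. The neighbours Slurp2 and Lypd2 were at 0 in every mouse, and Lynx1 and Ly6k did not reach a mean of 1 FPKM. For Sprr1a, 45 of 63 other genes of the cornified envelope and epidermal differentiation complex were at 0 in every mouse, Sprr3, Sprr4 and the Sprr2 genes Sprr2d to Sprr2i among them. Sprr1b, the closest relative, had means of 0.0229 FPKM in ND and 0.0187 FPKM in control mice. Of the 3 genes tested, Cstb, a cysteine protease inhibitor that most cells express, rose by 0.59 (limma adjusted p = 0.000531). In HYA mice Cstb was lower than in control mice by 0.40 on the log2 scale (limma adjusted p = 0.0442). Tgm1 (-0.68, limma adjusted p = 0.0579) and Ppl (0.25, limma adjusted p = 0.310) did not pass in control against ND mice.

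For Sdcbp2, 14 partners of syntenins, syndecans and exosomes were tested, of which 3 were higher and 3 lower in control than in ND mice. Scaled to TPM, which shifted the median of all genes from -0.04 to 0.17, the counts were 9 and 2. Cd63, which binds syntenin-1, rose by 1.96 (limma adjusted p = 1.18e-05) and was the single partner lower in HYA than in control mice (-1.10, limma adjusted p = 0.0168; 2 were lower with TPM), where 1.23% of all genes passed as lower. Hpse, the heparan sulphate cleaving enzyme, rose by 0.73, and the syndecans Sdc2 and Sdc4 were lower by -0.71 and -0.78. Of 28 other TRIM genes tested, 6 were higher and 2 lower in control mice (12 and 0 with TPM), with a median change of 0.02, and 0 passed in HYA against control mice by limma or voom (2 at an unadjusted p under 0.05, which 18.5% of all genes had). Trim25, Trim7 and Trim24 rose by 0.39, 0.70 and 0.63, and their values of -0.13, -0.21 and -0.03 in HYA against control mice did not pass. Of 25 other Kelch-BTB genes, 1 was higher, Ivns1abp at 0.66 (limma adjusted p = 0.000531), and 4 were lower (5 and 1 with TPM), and 0 passed in HYA against control mice by limma or voom (3 at an unadjusted p under 0.05).

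Genes linked to injury responses were followed in the same way. These lists were also chosen with earlier results of these data known, and the genes named were picked for a low p. The counts are therefore a description. Over all genes, 16.2% passed as higher in control than in ND mice. Of 17 tested genes of hepatocyte injury and dedifferentiation, 15 were higher and 1 lower in control than in ND mice, with a median log2 fold change of 1.41 against -0.04 over all genes. Anxa2, an annexin, went from 4.02 to 33.9 FPKM (limma adjusted p = 2.43e-06), Lcn2, lipocalin-2, from 1.02 to 25.6 FPKM (limma adjusted p = 1.95e-05), and the fetal transcript H19 from 0.0476 to 3.08 FPKM (limma adjusted p = 0.000727). Among all genes, 1.23% passed as lower in HYA than in control mice. Of the 17, 6 were lower in that comparison, among them H19 (-1.61, limma adjusted p = 0.0289), Anxa2 (-0.95, limma adjusted p = 0.0293) and Vim (-0.54, limma adjusted p = 0.0436). That count ran from 0 to 9 when single mice were left out. It was 0 without control mouse 1, HYA mouse 2 or HYA mouse 3, 1 without control mouse 3 or HYA mouse 1, 2 without ND mouse 2, LA mouse 2 or LA mouse 3, and 3 without ND mouse 1 or ND mouse 3. In LA against ND mice 15 of 17 were higher, where 14.4% of all genes passed as higher.

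Of 14 AP-1 and immediate early factors tested, 9 were higher and 0 lower in control than in ND mice, with a median of 0.71 (5 higher without ND mouse 2 or without control mouse 1). Klf6 rose by 1.44 (limma adjusted p = 6.48e-05), Mafk by 1.05 (limma adjusted p = 0.000133), Atf3 by 1.21 (limma adjusted p = 0.000242) and Jun by 1.41 (limma adjusted p = 0.00139). In HYA against control mice 0 passed by limma, 3 had an unadjusted p under 0.05, voom called 1 as higher, and with TPM 1 was lower. Atf3, a stress-induced factor, had means of 1.02, 3.72, 2.08 and 4.04 FPKM in ND, control, HYA and LA mice, and its HYA against control value of -0.61 had a limma adjusted p of 0.0709. Of 19 p53 targets 11 were higher and 0 lower in control mice, Gdf15 by 2.04 (limma adjusted p = 0.000268), and 0 passed in HYA against control mice by limma or voom (5 at an unadjusted p under 0.05, and 2 lower with TPM). YAP and TEAD targets gave 7 higher and 2 lower of 17 (10 and 0 with TPM), and 0 passed with HYA by limma or voom (5 at an unadjusted p under 0.05). Of 17 genes of gp130 and STAT3 signalling 2 were higher and 2 lower in control mice (5 and 1 with TPM), and 1, the receptor gene Lifr, was higher with HYA (0.94, limma adjusted p = 0.0141), as were 1.57% of all genes.

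**Figure D4:**
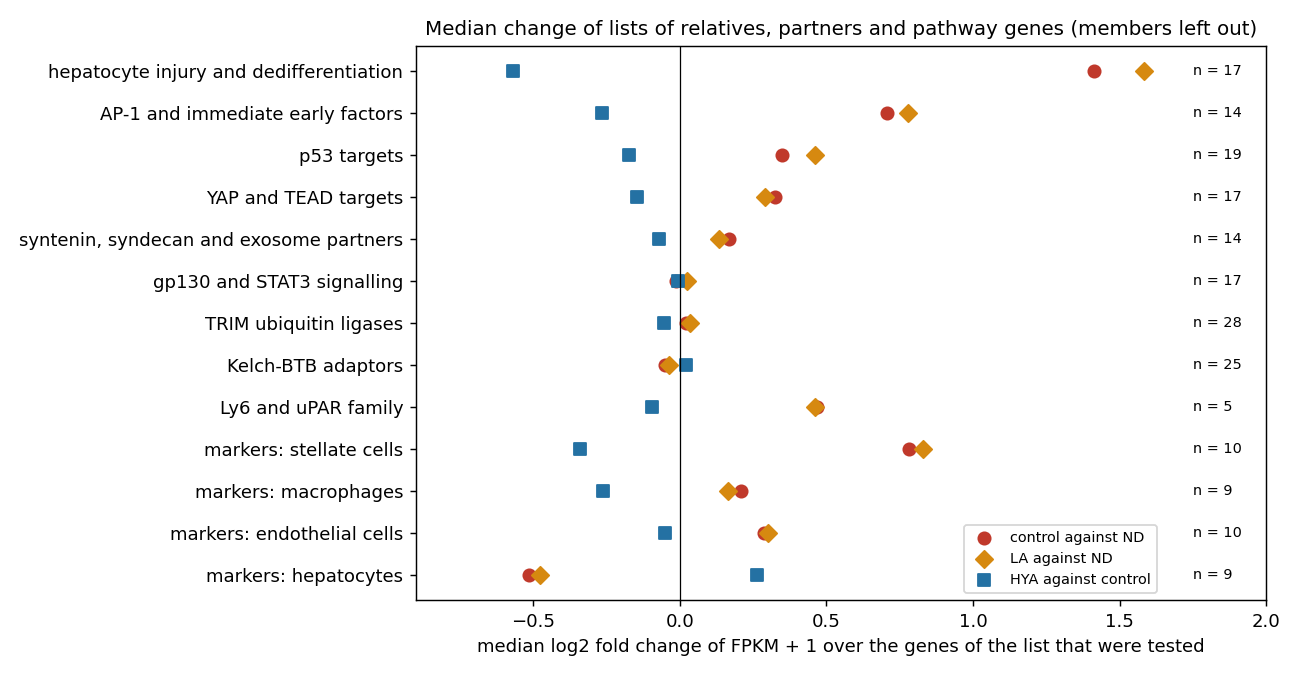
Median log2 fold change of FPKM + 1 of lists of related genes and cell markers in control against ND, LA against ND and HYA against control mice, with the number of genes tested at the right and the 5 members left out. Not drawn are cornified envelope genes and markers of squamous epithelium, cholangiocytes (-0.58 in HYA against control mice), B cells, plasmacytoid dendritic cells, and T and NK cells. Among the lists drawn, hepatocyte injury genes lie farthest from 0, at 1.41 in control against ND and -0.57 in HYA against control mice, and TRIM and Kelch-BTB genes lie near 0.

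Other cells that could carry these transcripts were checked by their markers. Of 16 squamous epithelium markers, 7 were at 0 in every mouse, among them the basal and stratified keratins Krt14, Krt15, Krt13, Krt16 and Krt6a, and Perp alone was abundant enough to test. Perp had means of 52.0, 60.2, 65.6 and 62.9 FPKM in ND, control, HYA and LA mice. It passed as higher in control against ND mice (0.21, limma adjusted p = 0.0103) but not in HYA against control mice (0.12, limma adjusted p = 0.229). Cholangiocyte markers summed to 25.6 to 35.9 FPKM in ND, 84.0 to 179 FPKM in control, 44.3 to 57.9 FPKM in HYA and 87.0 to 142 FPKM in LA mice, most of it Spp1, which macrophages and injured hepatocytes express too. Of 4 such markers tested, Spp1 and Epcam were higher in control than in ND mice and lower in HYA than in control mice, and Sox9 passed in neither. The 2 lower calls were lost without control mouse 1, control mouse 3, any 1 of the HYA mice, ND mouse 2 or LA mouse 3. Stellate cell markers summed to 52.9 to 66.7 FPKM in ND, 106 to 139 FPKM in control, 89.1 to 107 FPKM in HYA and 117 to 143 FPKM in LA mice, with 7 of 10 higher in control than in ND mice and 3 of 10, Col1a1, Col1a2 and Col3a1, lower in HYA than in control mice (0 without control mouse 1, control mouse 3 or any 1 HYA mouse). Markers of B cells and plasmacytoid dendritic cells, whose progenitors are known to express Ly6d, summed to 9.97 to 17.95 and 2.16 to 2.999 FPKM in ND, 22.6 to 27.8 and 3.19 to 4.39 FPKM in control, 24.7 to 38.4 and 2.95 to 3.52 FPKM in HYA, and 22.6 to 31.0 and 3.32 to 4.25 FPKM in LA mice. Macrophage markers (4 higher and 1 lower of 9 in control against ND mice) and endothelial markers (5 higher of 10, 9 with TPM) were also measured, with 1, Gpnmb, and 0 lower in HYA than in control mice, no endothelial gene having an unadjusted p under 0.05 or passing by voom. Of the B cell and plasmacytoid dendritic cell markers, Ighm and Irf8 alone were tested. Both were higher in control than in ND mice, by 1.02 (limma adjusted p = 0.0215) and 0.48 (limma adjusted p = 0.0141). Neither passed in HYA against control mice. T and NK cell markers stayed too low to test. Hepatocyte markers were lower in 7 of 9 in control than in ND mice. They summed to 41396 to 43069 FPKM in ND, 27956 to 31978 FPKM in control, 35873 to 36936 FPKM in HYA and 30688 to 31394 FPKM in LA mice. In HYA against control mice 0 of 9 passed by limma and voom called 1 as higher. At an unadjusted p under 0.05 the count was 5, where 18.5% of all genes had such a p. Control mouse 2, lowest of the control mice for the 5 genes, was also the lowest of them in the summed level of most lists. Among these were cholangiocyte markers (84.0 FPKM), stellate cell markers (106 FPKM), hepatocyte injury genes (597 FPKM) and AP-1 factors (140 FPKM). Macrophage, endothelial, plasmacytoid dendritic, and T and NK cell markers were others, as were YAP and TEAD, gp130, TRIM, Ly6 and cornified envelope genes. That mouse was the highest of them for hepatocyte markers. It was not the lowest for squamous epithelium or B cell markers, p53 targets, Kelch-BTB genes or syntenin partners. The part of these cells in the levels of the 5 genes was not tested.

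Genes beside the members in the genome were examined last. Of 30 nearest neighbours, 3 on each side, 10 were at 0 in every mouse and 9 were tested, and 4 of these passed in control against ND mice and 4 in LA against ND mice. Fkbp1a, next to Sdcbp2 and the gene of an immunophilin, rose from 13.02 to 23.7 FPKM in control mice (0.81, limma adjusted p = 2.12e-05) and fell to 18.4 FPKM with HYA (-0.34, limma adjusted p = 0.0390), the single neighbour lower in HYA than in control mice. No neighbour of Ly6d or Sprr1a was abundant enough to test. Lynx1, a Ly6 family gene beside Ly6d, was at 0.135 to 0.227 FPKM in ND, 0.653 to 0.928 FPKM in control, 0.451 to 0.487 FPKM in HYA and 0.702 to 1.07 FPKM in LA mice, so its groups lay in the order seen for Ly6d, with HYA mice apart from the others. Ly6k, on the other side of Ly6d, had means of 0.0711, 0.380, 0.0740 and 0.353 FPKM in ND, control, HYA and LA mice, with ND and HYA ranges that overlapped.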

How the data were processed

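Liver RNA of 12 mice was read as paired ends. Per the labels, RNA was taken up with an RNeasy kit and libraries were made with Nextera XT kits. The submitters' processing notes name fastp, HISAT2 2.0.5, featureCounts 1.5.0-p3 and the GRCm38 build. The authors deposited 1 table of FPKM values for all samples, and gene length in bases beside them. The methods of the study speak of TPM, but the columns sum to 342146 to 429286, so the values were taken as FPKM. Whether strand was used in counting is not given in the sources used here.

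FPKM multiplied by gene length gave whole fragments for at least 99.9% of values per library (within 0.02 fragment), which supplied the depths. The 11083 genes whose mean reached 1 FPKM were tested by limma 3.58.1 (R 4.3.3) on log2(FPKM + 1), with all 4 groups in 1 fit, a trended prior and Benjamini-Hochberg adjustment over all genes tested, two-sided. A gene was called at an adjusted p under 0.05 where it also changed by more than 1 on the log2 scale, as in the study. Related genes were counted at the adjusted p alone. The fit was tested on simulated data. Alternatives were median-ratio scaling, TPM, other filters, a pseudocount of 0.1, voom on recovered fragments, fits of the 2 groups alone, a replicate block and leaving out each mouse. Replicate numbers showed no sign of pairing the mice, which does not exclude it.

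The members and the lists of related genes were chosen with earlier results of these data known. Named genes were all 5 members, the 3 genes most like each over the mice (and by deviations from group means, clone names left out), the 3 neighbours on each side, and from each list up to 4 genes with the lowest p in control against ND mice and up to 2 in HYA against control mice. Keratins, Sprr and Ly6 genes at 0 are also named, and a few genes that the rule picks are not reported here. No deposited columns of comparisons were present in the table.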

Additional observations from a re-analysis of the deposited data

Results flagged for a closer look

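HYA and LA mice, both on the high-fat diet, differed for 3 of the 5 genes by the limma test at the adjusted p alone, where 0.253% of all genes were lower in HYA mice. The difference, HYA minus LA on the log2(FPKM + 1) scale, was -2.29 for Ly6d (limma adjusted p = 0.0268), -2.07 for Sprr1a (limma adjusted p = 0.0350) and -0.97 for Sdcbp2 (limma adjusted p = 0.0365). Each was lower in 3 of 3 HYA mice than in every LA mouse. Sdcbp2 reached the mean of 1 FPKM needed for testing only through its control and LA mice, and LA mice are the higher group of this test. The HYA mice took part in the choice of the genes for being low, so the test is not independent of that choice, and with no filter on low values the lowest limma adjusted p of the 3 was 0.0783. Groups of 3 mice are too small for a test of single outlying values.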

How the results depend on the processing

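The counts of genes called in LA against ND (4, or 5 at the adjusted p alone) and in LA against control mice (0) held in all 21 alternatives. In HYA against LA mice the 2 calls became 0 with no filter on low values, and 0 to 2 when single mice were left out. At the adjusted p alone, or with voom, 3 were called. Sdcbp2 passed the log2 change of 1 with TPM (-1.45), with a pseudocount of 0.1 (-1.67) and with voom (-1.80). Differences between LA and control mice changed sign without control mouse 2 for Ly6d (-0.28) and Sprr1a (-0.43), without LA mouse 1 (-0.12 for Ly6d, -0.04 for Sprr1a) and without LA mouse 3 for Sprr1a (-0.02), and ranged up to 0.31 for both over the mice left out. The median r over pairs of genes was 0.277 without control mouse 2, and 0.277 to 0.762 over all mice left out in turn. Same-numbered mice of different groups had a mean r of deviations of 0.01 (-0.40 to 0.29), against -0.01 (-0.38 to 0.39) for mice of different numbers. The numbers thus showed no sign of pairing the mice, which does not exclude it. With the replicate block 4, 0 and 2 genes were called in the 3 comparisons, and no call changed. Counts of related genes without single mice, with TPM and with voom were chosen after seeing the data. In ND mice Sprr1a rests on 3 fragments and Sdcbp2 on 8, so their folds against ND mice depend on the pseudocount. The causes were not tested.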
